A study of Mus musculus with 20 samples.

Results

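Interferon-stimulated genes (ISGs), the genes that cells switch on in answer to interferons, were followed in sorted mouse CFU-E, bone marrow progenitors committed to the red cell lineage. The members were a list of 43 symbols for the interferon receptor, its transcription factors and the genes these act on. All 43 had an entry in the table, and 37 reached a signal of 1 or more in 5 or more of the 20 libraries, as did 10890 of the table's 37748 entries. They fall into 6 groups of roles, which are receptors, transcription factors, nucleic acid sensors, antiviral effectors, genes of ubiquitin-like and ADP-ribose modification, and other members.

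RNA was sequenced from 4 groups of 5 libraries each. CFU-E came from Mx1-Cre Srsf2P95H/+ mice (called P95H here), heterozygous for a mutation of the splicing factor Srsf2, after phenylhydrazine (PHZ) or after saline (PBS), and from Mx1-Cre mice after PHZ or after PBS. PHZ lyses red cells. It was given under the skin on day 0 and again on day 1, each time at 30 mg/kg, and on day 4 the marrow was sorted for live, lineage-negative, c-Kit-high and CD105-positive cells without Sca-1, CD41, CD16/32 or CD150. Cre in all 4 groups is driven by the promoter of Mx1, itself an interferon-stimulated gene, and the sources used here do not say whether or when an interferon inducer was used to switch it on, nor the age of the mice. Libraries are labelled with separate animal numbers, so p-values measure the spread between animals together with that between library preparations.

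Type I interferons bind a receptor of the Ifnar1 and Ifnar2 chains, whose kinases Jak1 and Tyk2 phosphorylate STAT proteins. Stat2 and Irf9 are subunits of the complex ISGF3, which binds interferon-stimulated response elements (ISREs) in promoters and switches on antiviral genes, among them Irf7, which feeds back on interferon production. Interferon-stimulated genes are also expressed at a low level without infection, and in bone marrow interferons are known to act on stem and progenitor cells. Sca-1, which the sort excludes, is the product of Ly6a, a gene that interferons are known to induce. Ly6a averaged 0.503 ± 0.484 in P95H PHZ and 0.737 ± 0.239 in P95H PBS libraries, and 0.216 ± 0.202 in Mx1-Cre PHZ and 0.237 ± 0.258 in Mx1-Cre PBS libraries (SD, n = 5 each).

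Values are the authors' normalised expression signal, which has the form of TPM (a length-scaled share of transcripts) and can be compared between genes per length. Its sum per library ran from 924763 to 1085047, and the read depth of each library is unknown. All 14 erythroid markers checked, such as Gata1, Klf1 and Epor, passed the filter on low values in these CFU-E. Markers of granulocytes and monocytes were also detected: 13 of 18 passed, and their summed signal ran from 160 to 599 in P95H PHZ, 152 to 1084 in Mx1-Cre PHZ libraries, 566 to 2487 in P95H PBS and 456 to 959 in Mx1-Cre PBS libraries. Lymphoid markers summed to at most 12.5 in any library, macrophage markers to at most 3.9 and plasmacytoid dendritic cell markers to at most 1.51, with Klrd1, Cox6a2 and Klk1 at 0 in all 20. Megakaryocyte markers summed to at most 16.6 and basophil and mast cell markers to at most 5.12. Genes of the surface markers that the sort excludes summed to at most 8.51. In such bulk samples, fewer cells of a type and less RNA per cell cannot be told apart.

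Per length, the most abundant members were Ifitm2, at 249 to 367 over the 20 libraries, Lgals3bp, at 125 to 268, Isg20, at 114 to 188, and Ifitm3, at 38.8 to 184. Both receptor chains were present in every library, Ifnar1 at 12.5 to 16.5 and Ifnar2 at 40.3 to 51.9. In 30 of the 43 members the signal was at least 1 in all 20 libraries. The 6 members that did not pass were Ifit1, which binds the ends of foreign RNA, Ifit3, Mx1, Mx2, Oas2 and Ifi44. Mx1 and Mx2 are dynamin-like GTPases, and Oas2 is an oligoadenylate synthetase. Mx1 was listed at 0 in 4 libraries and reached at most 0.846, and the highest values of the others were 1.87 for Ifit1, 0.649 for Ifit3, 0.42 for Mx2, 1.43 for Oas2 and 2.24 for Ifi44. No transcript of most interferons was seen: of 17 ligand genes in the table, 14 were listed at 0 in all 20 libraries, including Ifng and the genes of the alpha family measured, and the highest value of any was 0.33, for Ifnk.

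The first question was how the genes responded to PHZ in each genotype. In CFU-E of P95H mice, 27 of the 37 members tested fell after PHZ, none rose and 10 were not called (limma, Benjamini-Hochberg adjusted p below 0.05 over all 10890 entries). Among all entries, 17.7% were called lower and 12.6% higher in this comparison. The median log2 fold change was -0.58 over the members, against -0.02 over all entries. By more than 1 on the log2 scale 14 members fell, a count that was not made over all entries. In 20 members every P95H PHZ library lay below every P95H PBS library, as did 10.0% of all entries. With the authors' factor divided out, 24 members fell and 1 rose, while the split of all entries turned to 1110 lower and 2584 higher, against 1923 lower and 1371 higher as deposited.

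In CFU-E of Mx1-Cre mice, 21 of the 37 members fell after PHZ, 1 rose and 15 were not called, where 14.9% of all entries were called lower and 17.0% higher. The median log2 fold change was -0.48 over the members, against -0.00 over all entries. By more than 1 on the log2 scale 9 members fell, again not counted over all entries. In 18 members every Mx1-Cre PHZ library lay below every Mx1-Cre PBS library, as did 9.82% of all entries. With the factor divided out, 20 members fell and 1 rose, beside 1215 lower and 2238 higher entries in all, against 1618 lower and 1856 higher as deposited. The member that rose was Ifi35, an interferon-induced leucine zipper protein, with a log2 fold change of 0.30 (SE 0.102, adjusted p = 0.027), and in P95H its change was 0.06 (SE 0.102, adjusted p = 0.688). Its call was lost without a filter on low values (0.30, adjusted p = 0.057), and also on leaving out replicate 4 of Mx1-Cre PBS or replicate 3 or 5 of Mx1-Cre PHZ (0.25 to 0.28, adjusted p 0.0554 to 0.089). The 2 PHZ comparisons share no library. Called lower in both were 19 members, of 27 that fell in P95H and 21 that fell in Mx1-Cre. Among all entries 1148 were lower in both, of 1923 lower in P95H and 1618 lower in Mx1-Cre, so much of this overlap is shared by the whole table. Zbp1, Oasl2 and Rtp4 had a signal of at least 1 in under 5 PHZ libraries, so they needed their PBS libraries to pass the filter on low values, Zbp1 through PBS libraries alone, and their selection and their lower PHZ level are not independent.

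**Figure D1:**
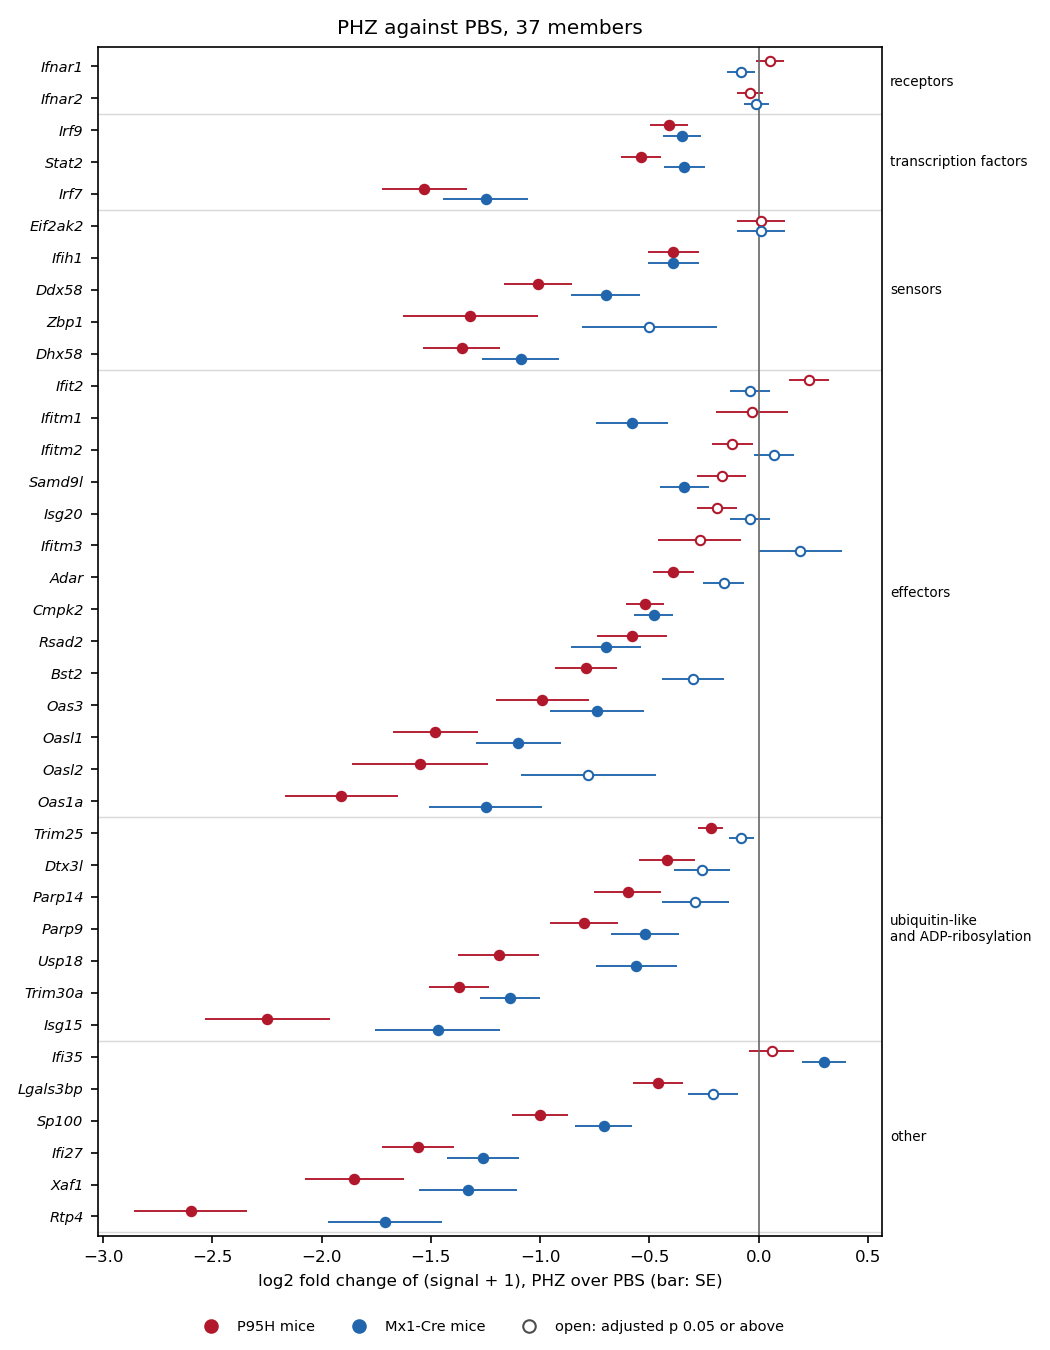
Log2 fold change of each of the 37 members tested, PHZ over PBS, in P95H mice (red) and Mx1-Cre mice (blue), with its SE, grouped by role. Filled points passed the test (27 lower in P95H; 21 lower and 1 higher in Mx1-Cre), and the receptor chains, Eif2ak2 and Ifitm2 lie between -0.12 and 0.07 in both genotypes.

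Members that moved together were compared by the letters of their promoters. RefSeq windows (GRCm38.p6, 250 bases before to 50 after each gene's start) were matched for 33 of the 43 members, and no window was used for Dhx58, Zbp1, Mx1, Mx2, Oas2, Usp18, Parp9, Parp14, Rtp4 and Ifi27. The core of the interferon-stimulated response element, searched as TTTC, any 2 bases and TTTC on both strands (GAAA, any 2 bases and GAAA on the other), with overlapping matches counted, occurred in 14 of the 33 members (42.4%), against 1079 of 27025 genes (3.99%). A second motif, TTCNNNGAA, the palindromic site bound by STAT dimers, occurred in 10 of the 33 (30.3%), against 9.55% of genes. Response-element letters were found in 8 of the 14 members with a window that fell in both PHZ comparisons, in 1 of the 8 that fell in one of them and in 3 of the 8 that fell in neither. Stretches of 60 bases are printed 5′ to 3′ on each gene's strand, with the matches in capitals, because they show the motif both in members that fell after PHZ and in members that were not called:
Isg15: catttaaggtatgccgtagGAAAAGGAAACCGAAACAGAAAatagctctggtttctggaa
Oas1a: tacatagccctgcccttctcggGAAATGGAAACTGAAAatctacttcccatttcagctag
Trim30a: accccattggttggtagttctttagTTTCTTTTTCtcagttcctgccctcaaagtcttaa
Bst2: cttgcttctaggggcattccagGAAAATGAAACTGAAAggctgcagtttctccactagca
Eif2ak2: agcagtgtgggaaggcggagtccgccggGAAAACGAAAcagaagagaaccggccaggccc
Ifitm2: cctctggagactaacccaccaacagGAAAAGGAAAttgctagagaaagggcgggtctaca

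The Isg15 stretch (chr4:156200856-156200915, minus strand) holds 3 overlapping matches, the first starting 78 bases upstream of the annotated start. The Oas1a stretch (chr5:120907508-120907567, minus strand) holds 2 overlapping matches from 20 bases upstream, and the Bst2 stretch (chr8:71537565-71537624, minus strand) 2 from 130 bases upstream. The Trim30a stretch (chr7:104465195-104465254, minus strand) holds 1 match, 36 bases upstream. The Eif2ak2 stretch (chr17:78882523-78882582, minus strand) holds 1 match, which begins 18 bases after the annotated start. The Ifitm2 stretch (chr7:140955973-140956032, minus strand) holds 1 match, from 46 bases upstream. Isg15, Oas1a and Trim30a fell after PHZ in both genotypes and Bst2 in P95H, while Eif2ak2 and Ifitm2 were called in neither. A match is a description of sequence and no measurement of binding.

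The receptor chains were not called in any of the 5 comparisons. In P95H, Ifnar1 stood at 13.6, 14.4, 15.5, 14.8 and 13.4 in the PHZ libraries, against 14.3, 14.7, 14.6, 13.1 and 12.5 in the PBS libraries. The Mx1-Cre values were 16, 15.5, 14.1, 13.6 and 14 after PHZ, against 14.3, 14.9, 16.5, 16.5 and 15.6 under PBS. The 4 groups overlapped, and the PHZ effect was 0.05 (SE 0.064, adjusted p = 0.615) in P95H and -0.08 (SE 0.064, adjusted p = 0.345) in Mx1-Cre. In P95H, Ifnar2 stood at 44.9, 48.4, 42.2, 45.2 and 41.7 in the PHZ libraries, against 47.1, 43.6, 41.9, 51.9 and 44.5 in the PBS libraries. Its Mx1-Cre signal was 43.9, 44.4, 45.7, 40.3 and 44.5 after PHZ, against 45.4, 45.2, 42.4, 45.5 and 41.2 under PBS. Its groups overlapped as well, with a PHZ effect of -0.04 (SE 0.0577, adjusted p = 0.639) in P95H and -0.01 (SE 0.0577, adjusted p = 0.95) in Mx1-Cre.

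All 3 transcription factors fell after PHZ in both genotypes. Irf7, the factor that amplifies interferon production (ENSMUSG00000025498, chromosome 7, 141262706 to 141266481, minus strand, GRCm38), changed most of the 3: in P95H it stood at 8.6, 4.61, 6.81, 8.26 and 5.59 in the PHZ libraries, against 14.5, 19.7, 23.6, 34.8 and 17.2 in the PBS libraries. Every PHZ library was lower than every PBS library (log2 fold change -1.53, SE 0.195, adjusted p = 8.82e-06). Among Mx1-Cre mice, the libraries gave 6.46, 6.42, 4.53, 4.37 and 4.59 after PHZ, against 17, 13.6, 16.4, 11.5 and 11.1 under PBS, again without overlap (log2 fold change -1.25, SE 0.195, adjusted p = 9.33e-05). Its gene overlaps Phrf1 on the opposite strand, which averaged 62.2, and since the strand setting of the counting is not given, reads of the pair may be mixed.

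Stat2, the subunit of ISGF3 that activates transcription, moved less. In P95H, Stat2 stood at 8.62, 9.45, 10.1, 12.1 and 13.1 in the PHZ libraries, against 14.7, 17.3, 16.2, 16.3 and 15 in the PBS libraries, without overlap (log2 fold change -0.54, SE 0.0922, adjusted p = 0.000138). In Mx1-Cre CFU-E, values of 12.2, 13.5, 11.6, 11.8 and 10.8 were found after PHZ, against 17.6, 14, 16.1, 15.3 and 14 under PBS, also without overlap (log2 fold change -0.34, SE 0.0922, adjusted p = 0.00803). Irf9, the DNA-binding subunit of ISGF3, likewise separated the treatments: in P95H it stood at 33.1, 29.8, 30.9, 31.3 and 38.2 in the PHZ libraries, against 40.5, 38.8, 47.6, 47.6 and 44 in the PBS libraries (log2 fold change -0.41, SE 0.0873, adjusted p = 0.00122). CFU-E of Mx1-Cre mice had 35.5, 35.7, 27.6, 29.1 and 26 after PHZ, against 41.6, 39.7, 42, 37 and 36.3 under PBS (log2 fold change -0.35, SE 0.0873, adjusted p = 0.0041). Irf9 overlaps Rnf31 on the same strand, which averaged 20.6, so part of its reads may be shared.

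Of the 5 nucleic acid sensors, 4 fell in P95H and 3 in Mx1-Cre. Dhx58 (LGP2), which modulates the RNA sensors, had the largest fall of the 5 in both genotypes: in P95H it stood at 5.09, 1.95, 3.66, 4.17 and 3.7 in the PHZ libraries, against 7.88, 10.2, 12.3, 15.2 and 9.55 in the PBS libraries. The P95H groups did not overlap (log2 fold change -1.36, SE 0.177, adjusted p = 8.15e-06). Mx1-Cre libraries held 4.04, 3.44, 2.41, 2.52 and 2.98 after PHZ, against 8.5, 7.22, 9.63, 7.18 and 5.79 under PBS, also without overlap (log2 fold change -1.09, SE 0.177, adjusted p = 0.000112). Ifih1 (MDA5), a sensor of long double-stranded RNA, fell by a smaller step: in P95H it stood at 13.2, 9.95, 15, 11.3 and 14.3 in the PHZ libraries, against 13.8, 16.2, 20.7, 18.7 and 15.4 in the PBS libraries. Here the treatments overlapped in both genotypes, and the change was -0.39 (SE 0.115, adjusted p = 0.0142) in P95H. The Mx1-Cre values were 14, 11.1, 10, 11.1 and 10.5 after PHZ, against 17.1, 15.7, 16.3, 13.3 and 13.3 under PBS, a change of -0.39 (SE 0.115, adjusted p = 0.0131). Without P95H PHZ replicate 2 the P95H change was -0.31 (adjusted p = 0.0504), without P95H PBS replicates 4 and 5 it was -0.37 (adjusted p = 0.0593), and after dividing by the authors' factor it was -0.29 (adjusted p = 0.0842).

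Ddx58 (RIG-I), the sensor of uncapped RNA ends, stood at 0.944 to 1.29 in P95H PHZ and 1.99 to 5.35 in P95H PBS libraries (log2 fold change -1.01, SE 0.157, adjusted p = 5.73e-05), and changed by -0.70 (SE 0.157, adjusted p = 0.00196) in Mx1-Cre. Zbp1, which senses Z-form nucleic acids and can start cell death, fell in P95H (log2 fold change -1.32, SE 0.308, adjusted p = 0.00293), where it stood at 0 to 0.357 after PHZ and 0.675 to 8.92 under PBS, and its value of 8.92 came from P95H PBS replicate 4. In Mx1-Cre its change of -0.50 (SE 0.308, adjusted p = 0.23) was not called, although every PHZ library lay below every PBS library and the change was called in a fit of the 2 Mx1-Cre groups alone (adjusted p = 0.00697), without P95H PBS replicate 4 (adjusted p = 0.00985) and with a pseudocount of 0.1 (-1.37, adjusted p = 0.0457). Eif2ak2 (PKR), the kinase that stops translation on double-stranded RNA, was called in no comparison, with PHZ effects of 0.01 (SE 0.111, adjusted p = 0.947) in P95H and 0.01 (SE 0.111, adjusted p = 0.978) in Mx1-Cre. Its range was 27.9 to 38.5 in P95H PHZ, 26.8 to 35.5 in Mx1-Cre PHZ libraries, 27 to 38.7 in P95H PBS and 26 to 36.5 in Mx1-Cre PBS libraries, so all 4 groups overlapped.

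**Figure D2:**
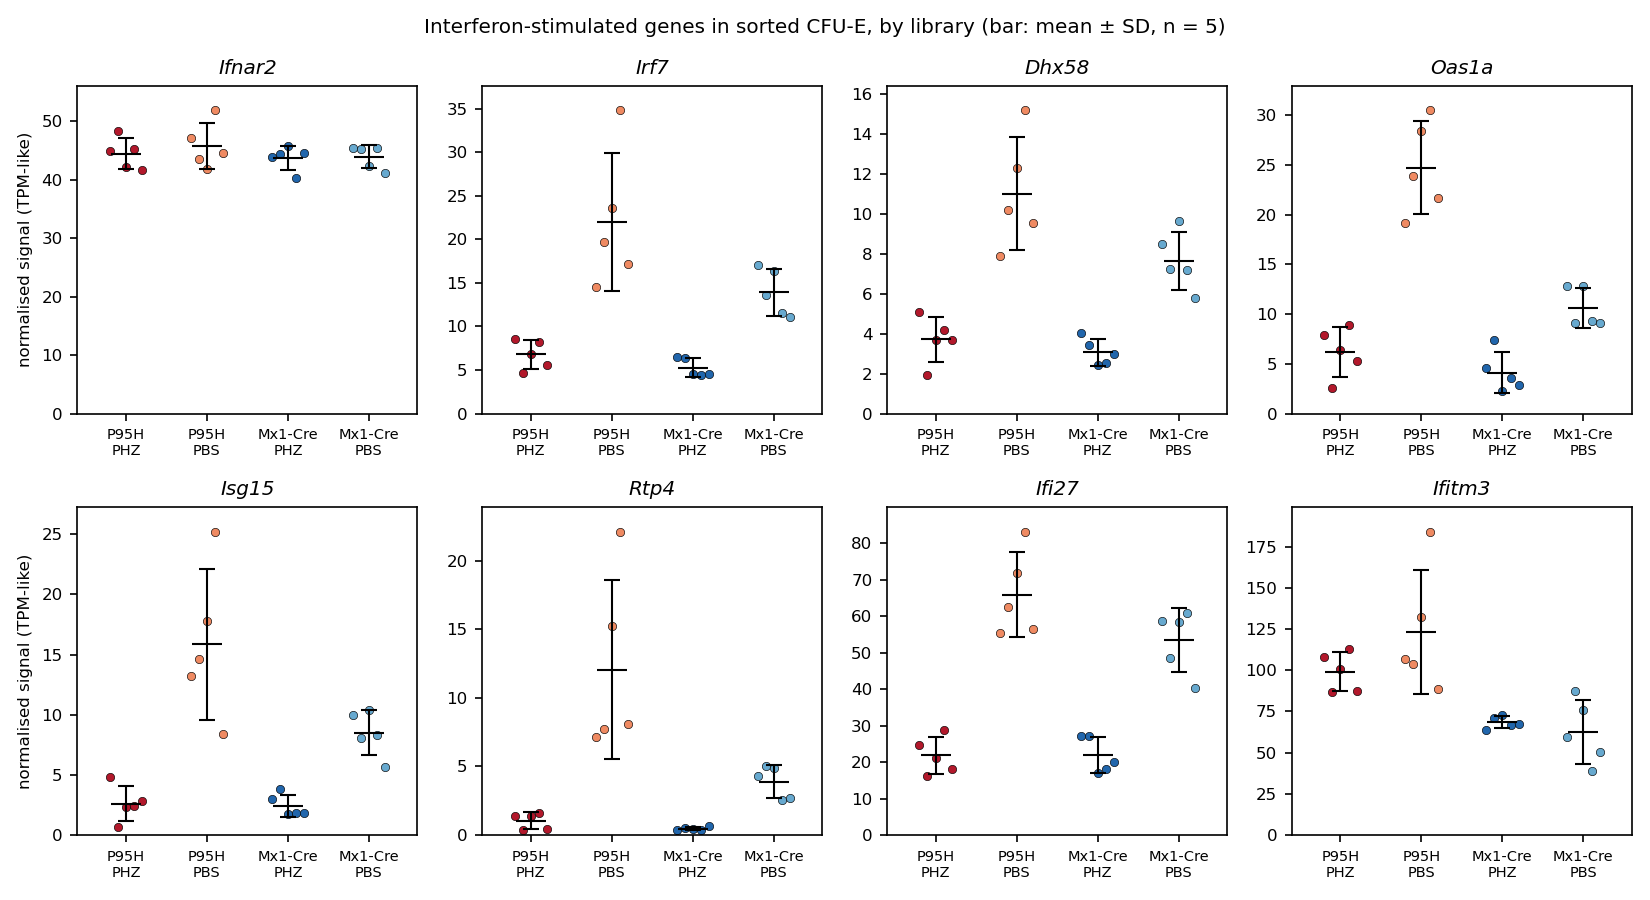
Normalised signal of 8 members in every library (points), with mean ± SD (n = 5), in P95H PHZ, P95H PBS, Mx1-Cre PHZ and Mx1-Cre PBS CFU-E, each axis from 0. Ifnar2 is level across the groups, at 40.3 to 51.9, Irf7, Dhx58, Isg15, Rtp4 and Ifi27 are lower in every PHZ library than in every PBS library of the same genotype, Oas1a as well, and Ifitm3 is higher in every P95H library than in every Mx1-Cre library of the same treatment, a difference called under PBS and not after PHZ.

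Of the 14 antiviral effectors tested, 8 fell in P95H and 7 in Mx1-Cre, and none rose after PHZ. The oligoadenylate synthetase family, whose enzymes make the messenger that activates RNase L, held the largest changes. Oas1a (ENSMUSG00000052776, chromosome 5, 120896256 to 120907521, minus strand) stood in P95H at 7.85, 2.52, 6.4, 8.92 and 5.27 in the PHZ libraries, against 19.2, 23.9, 28.4, 30.5 and 21.7 in the PBS libraries. The P95H groups were apart (log2 fold change -1.91, SE 0.257, adjusted p = 2.14e-05). Its Mx1-Cre signal was 4.62, 7.37, 2.23, 3.53 and 2.86 after PHZ, against 12.8, 9.07, 12.8, 9.33 and 9.07 under PBS, also without overlap (log2 fold change -1.25, SE 0.257, adjusted p = 0.0013). Oas1a has close relatives whose reads it could share.

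Oasl1, which in mice is known to hold back translation of Irf7, stood in P95H at 10.5, 5.82, 8.77, 13.5 and 6.74 in the PHZ libraries, against 19.4, 25, 28, 37.2 and 23.5 in the PBS libraries. The treatments were apart (log2 fold change -1.48, SE 0.195, adjusted p = 1.41e-05). Among Mx1-Cre mice, the libraries gave 10.1, 10, 6.11, 7.37 and 8.49 after PHZ, against 23.6, 16.8, 21.4, 19 and 14.8 under PBS, also apart (log2 fold change -1.10, SE 0.195, adjusted p = 0.00032). Oasl2, another member of the family, stood in P95H at 1.24, 0.897, 1.02, 0.856 and 0.771 in the PHZ libraries, against 2.06, 4.07, 5.96, 15.6 and 2.46 in the PBS libraries. The P95H treatments did not overlap, though P95H PBS replicate 4 was far above the rest (log2 fold change -1.55, SE 0.31, adjusted p = 0.000907). In Mx1-Cre CFU-E, values of 0.713, 1.05, 0.439, 0.577 and 0.542 were found after PHZ, against 2.53, 2.43, 1.9, 1.05 and 1.52 under PBS, and this difference was not called (log2 fold change -0.78, SE 0.31, adjusted p = 0.0636), although it was in a fit of the 2 Mx1-Cre groups alone (adjusted p = 0.00185), with a pseudocount of 0.1 (-1.36, adjusted p = 0.0112) and without P95H PBS replicate 1 or 4 (adjusted p = 0.0394 and 0.00325). Oas3 fell by 0.99 (SE 0.213, adjusted p = 0.00147) in P95H and by 0.74 (SE 0.213, adjusted p = 0.0119) in Mx1-Cre on the log2 scale.

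Rsad2 (viperin), which makes a chain-terminating nucleotide, and Cmpk2, the nucleotide kinase encoded beside it on chromosome 12, fell in both genotypes. Rsad2 changed by -0.58 (SE 0.161, adjusted p = 0.00871) in P95H and -0.70 (SE 0.161, adjusted p = 0.00244) in Mx1-Cre, and Cmpk2 by -0.52 (SE 0.089, adjusted p = 0.000147) in P95H and -0.48 (SE 0.089, adjusted p = 0.000355) in Mx1-Cre. Bst2 (tetherin), which holds budding virions at the membrane, averaged 40.2 ± 9.7 in P95H PHZ and 69.9 ± 14.7 in P95H PBS libraries and fell there (log2 fold change -0.79, SE 0.142, adjusted p = 0.000326). In Mx1-Cre it averaged 37.8 ± 3.94 after PHZ and 47 ± 5.29 under PBS, which did not pass (log2 fold change -0.30, SE 0.142, adjusted p = 0.111) except in a fit of the 2 Mx1-Cre groups alone (adjusted p = 0.0155). Adar, which edits adenosines in double-stranded RNA, fell in P95H alone among the calls (-0.39 in P95H and -0.16 in Mx1-Cre), and Samd9l, a restriction factor, in Mx1-Cre alone (-0.17 in P95H and -0.34 in Mx1-Cre). Samd9l was not called after division by the authors' factor (-0.30, adjusted p = 0.0661) or on leaving out replicate 1 or 3 of Mx1-Cre PBS or replicate 3 or 5 of Mx1-Cre PHZ (-0.29 to -0.32, adjusted p 0.0582 to 0.0614). The difference between the genotypes' PHZ effects was called for no member. Ifit2 (0.23 in P95H and -0.04 in Mx1-Cre) and the exonuclease Isg20 (-0.19 in P95H and -0.04 in Mx1-Cre) were not called, and in P95H Ifit2 was called higher under TMM factors, quantile normalization or with the authors' factor divided out (0.24 to 0.33, adjusted p 0.0191 to 0.0468), and without Mx1-Cre PBS replicate 4, P95H PBS replicate 2 or P95H PHZ replicate 2 or 4 (0.23 to 0.29, adjusted p 0.0196 to 0.0491). Isg20 was called lower in P95H without P95H PHZ replicate 1 or 5 (-0.25 and -0.26, adjusted p = 0.0497 and 0.0257).

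The Ifitm genes, a cluster on chromosome 7 whose membrane proteins block the fusion of viruses, had 1 call in the 2 PHZ comparisons, the fall of Ifitm1 in Mx1-Cre. Ifitm1 was low: in P95H it stood at 1.3, 1.67, 1.3, 2.12 and 1.3 in the PHZ libraries, against 1.8, 0.954, 1.44, 1.92 and 1.9 in the PBS libraries. The P95H treatments overlapped (log2 fold change -0.03, SE 0.164, adjusted p = 0.905). CFU-E of Mx1-Cre mice had 0.277, 0.241, 0.928, 0.46 and 0.814 after PHZ, against 0.759, 1.47, 0.913, 2.27 and 1.26 under PBS, with overlap and a called fall (log2 fold change -0.58, SE 0.164, adjusted p = 0.00947). In P95H, Ifitm3 stood at 108, 86.8, 101, 113 and 87.1 in the PHZ libraries, against 107, 104, 132, 184 and 88.5 in the PBS libraries. The overlap was wide (log2 fold change -0.27, SE 0.19, adjusted p = 0.304). Mx1-Cre libraries held 63.7, 70.9, 73.1, 67 and 67.4 after PHZ, against 59.2, 87.5, 75.8, 38.8 and 50.6 under PBS, and this too was not called (log2 fold change 0.19, SE 0.19, adjusted p = 0.491). Ifitm2 changed by -0.12 (SE 0.0934, adjusted p = 0.333) in P95H and 0.07 (SE 0.0934, adjusted p = 0.615) in Mx1-Cre. The family's members resemble each other in sequence, so reads may be shared among them.

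All 7 genes of ubiquitin-like and ADP-ribose modification fell in P95H and 4 of them in Mx1-Cre. Isg15, the ubiquitin-like protein that is joined to other proteins (ENSMUSG00000035692, chromosome 4, 156199424 to 156200818, minus strand), changed most: in P95H it stood at 4.79, 0.68, 2.35, 2.43 and 2.81 in the PHZ libraries, against 13.2, 14.6, 17.8, 25.2 and 8.36 in the PBS libraries. No P95H PHZ library reached a P95H PBS library, and P95H PHZ replicate 2 was lowest (log2 fold change -2.25, SE 0.286, adjusted p = 1.14e-05). The Mx1-Cre values were 2.99, 3.8, 1.76, 1.86 and 1.8 after PHZ, against 9.98, 8.09, 10.4, 8.29 and 5.67 under PBS, also without overlap (log2 fold change -1.47, SE 0.286, adjusted p = 0.000791). Usp18, which removes Isg15 and damps the receptor, stood in P95H at 3.09, 1.51, 2.93, 3.88 and 3.91 in the PHZ libraries, against 7.82, 7.05, 8.64, 10.7 and 6.42 in the PBS libraries. The P95H treatments were apart (log2 fold change -1.19, SE 0.184, adjusted p = 5.73e-05). Its Mx1-Cre signal was 3.67, 3.94, 1.69, 3.96 and 2.88 after PHZ, against 4.13, 5.62, 5.86, 5.83 and 4.23 under PBS, apart by a small margin (log2 fold change -0.56, SE 0.184, adjusted p = 0.0246), and this call was lost without a filter on low values (-0.56, adjusted p = 0.0512), and when replicate 2, 3 or 4 of Mx1-Cre PBS or replicate 3 of Mx1-Cre PHZ was left out (-0.41 to -0.53, adjusted p 0.0503 to 0.0843).

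Trim30a, a tripartite motif protein that restrains inflammatory signalling, stood in P95H at 2.31, 1.43, 1.94, 2.21 and 1.34 in the PHZ libraries, against 4.16, 5.98, 7.53, 8.84 and 5.73 in the PBS libraries. Its groups did not overlap (log2 fold change -1.37, SE 0.137, adjusted p = 2.44e-07). Among Mx1-Cre mice, the libraries gave 1.81, 1.69, 1.56, 1.49 and 2.02 after PHZ, against 5.56, 4.87, 5.3, 5.05 and 4.09 under PBS, again without overlap (log2 fold change -1.14, SE 0.137, adjusted p = 3.09e-06). Parp9 and Dtx3l, partners in a ubiquitin ligase complex whose genes overlap on opposite strands of chromosome 16, fell in P95H, where the change was -0.80 for Parp9 (adjusted p = 0.00066) and -0.42 for Dtx3l (adjusted p = 0.018). In Mx1-Cre Parp9 fell (-0.52, SE 0.157, adjusted p = 0.0151) and Dtx3l was not called (-0.26, SE 0.129, adjusted p = 0.13) except in a fit of the 2 Mx1-Cre groups alone (adjusted p = 0.0402). The P95H call of Dtx3l was lost in a fit of the 2 P95H groups alone (adjusted p = 0.0555) and without P95H PBS replicate 3 or 4 or P95H PHZ replicate 2 (-0.30 to -0.37, adjusted p 0.0509 to 0.058). Parp14, an ADP-ribosyltransferase of the same cluster, and Trim25, the ubiquitin ligase that activates RIG-I, fell in P95H, Parp14 by 0.60 (SE 0.152, adjusted p = 0.00473) and Trim25 by 0.22 (SE 0.0569, adjusted p = 0.00478) on the log2 scale, and were not called in Mx1-Cre, where they changed by -0.29 and -0.08. After division by the authors' factor, the falls of Trim25 and Dtx3l in P95H were not called (adjusted p = 0.164 and 0.0901).

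Among the 6 other members tested, 5 fell in P95H and 4 in Mx1-Cre. Rtp4, a chaperone of receptor transport (ENSMUSG00000033355, chromosome 16, 23520291 to 23614222, plus strand), had the largest PHZ effect of any member in both genotypes: in P95H it stood at 1.42, 0.349, 1.41, 1.6 and 0.451 in the PHZ libraries, against 7.17, 7.75, 15.2, 22.1 and 8.08 in the PBS libraries. The P95H treatments were far apart (log2 fold change -2.60, SE 0.26, adjusted p = 5.31e-07). In Mx1-Cre CFU-E, values of 0.386, 0.521, 0.449, 0.333 and 0.626 were found after PHZ, against 4.27, 5.02, 4.91, 2.54 and 2.71 under PBS, also without overlap (log2 fold change -1.71, SE 0.26, adjusted p = 7.56e-05). Xaf1, an antagonist of the apoptosis inhibitor XIAP, stood in P95H at 4.17, 2.13, 2.7, 3.19 and 4.4 in the PHZ libraries, against 10.5, 12.7, 16.5, 20.1 and 13.1 in the PBS libraries, without overlap (log2 fold change -1.85, SE 0.225, adjusted p = 5.46e-06). CFU-E of Mx1-Cre mice had 4.13, 4.92, 1.73, 2.27 and 2.87 after PHZ, against 12.2, 10.3, 11.2, 7.21 and 5.94 under PBS, without overlap (log2 fold change -1.33, SE 0.225, adjusted p = 0.0002).

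Ifi27, an interferon-induced membrane protein, stood in P95H at 24.8, 16.1, 21.2, 28.8 and 18.1 in the PHZ libraries, against 55.3, 62.5, 71.8, 83.1 and 56.5 in the PBS libraries. No library crossed between the P95H treatments (log2 fold change -1.56, SE 0.165, adjusted p = 1.13e-06). Mx1-Cre libraries held 27.2, 27, 17.1, 18 and 20.1 after PHZ, against 58.6, 48.6, 58.5, 60.8 and 40.2 under PBS, again apart (log2 fold change -1.26, SE 0.165, adjusted p = 1.54e-05). Sp100, a protein of nuclear bodies, changed by -1.0 (SE 0.129, adjusted p = 7.28e-06) in P95H and -0.71 (SE 0.129, adjusted p = 0.000307) in Mx1-Cre. Lgals3bp, a secreted glycoprotein, fell in P95H (-0.46, SE 0.114, adjusted p = 0.00449) and was not called in Mx1-Cre (-0.21, SE 0.114, adjusted p = 0.16).

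Granulocyte and monocyte markers that passed, 13 in all, had estimates below 0 after PHZ in both genotypes. All 13 were called lower in P95H and 1 in Mx1-Cre. Elane, a neutrophil protease, averaged 4.92 ± 2.75 in P95H PHZ and 35.5 ± 25.2 in P95H PBS libraries, and 6.01 ± 6.89 in Mx1-Cre PHZ and 16.3 ± 8.71 in Mx1-Cre PBS libraries. Summed lymphoid markers ran from 0.274 to 1.42 in P95H PHZ, 0.419 to 1.87 in Mx1-Cre PHZ libraries, 4.59 to 12.5 in P95H PBS and 2.79 to 4.11 in Mx1-Cre PBS libraries, so they too were lower after PHZ in every library. Of 2 megakaryocyte markers tested, 1 was called lower after PHZ in each genotype. The 1 basophil and mast cell marker tested was called higher in both (1.06 in P95H and 0.60 in Mx1-Cre). With the mean level of these 13 myeloid markers as a covariate, 18 members fell in P95H and 16 in Mx1-Cre. The median member change was then -0.62 in P95H and -0.41 in Mx1-Cre. Of all 10890 entries, 560 were called lower in P95H and 1073 in Mx1-Cre with the covariate, against 1923 and 1618 without it. The P95H falls of Ifih1, Zbp1, Oas3, Oasl2, Rsad2, Adar, Trim25, Dtx3l and Lgals3bp and the Mx1-Cre falls of Ifih1, Oas3, Ifitm1, Samd9l and Usp18 were not called with that covariate (adjusted p 0.0522 to 0.225 in P95H and 0.0526 to 0.107 in Mx1-Cre). Their P95H changes with the covariate were -0.34 for Ifih1, -1.16 for Zbp1, -0.87 for Oas3, -1.43 for Oasl2, -0.62 for Rsad2, -0.41 for Adar, -0.23 for Trim25, -0.39 for Dtx3l and -0.40 for Lgals3bp, beside the changes without it given above. In Mx1-Cre they were -0.36 for Ifih1, -0.68 for Oas3, -0.45 for Ifitm1, -0.36 for Samd9l and -0.48 for Usp18. The part of lymphoid cells was not tested.

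Member and marker means were also set side by side for each library. Over the 37 members the mean log2(signal + 1) was 3.60 ± 0.17 in P95H PHZ, 3.48 ± 0.12 in Mx1-Cre PHZ libraries, 4.40 ± 0.27 in P95H PBS and 4.03 ± 0.13 in Mx1-Cre PBS libraries (SD, n = 5 each). In P95H the marker means ran from 2.78 to 4.31 after PHZ and from 4.31 to 6.35 under PBS. In Mx1-Cre they ran from 2.63 to 5.06 after PHZ, with replicate 5 alone above 3.89, and from 4.14 to 5.10 under PBS. P95H PBS replicate 4, with a marker mean of 6.21, had the highest member mean, 4.80, and P95H PHZ replicate 2 had the lowest of its group in both, 2.78 for the markers and 3.32 for the members. Mx1-Cre PHZ replicate 5 had a marker mean of 5.06, within the 4.14 to 5.10 of the Mx1-Cre PBS libraries, and a member mean of 3.41, below all of their 3.87 to 4.14. P95H PBS replicate 5 had the highest marker mean of all, 6.35, and a member mean of 4.18, above only the 4.15 of replicate 1 in its group. Within the Mx1-Cre PBS group, replicate 5 had the highest marker mean, 5.10, and the lowest member mean, 3.87. P95H PBS replicate 4 was highest in its group for 27 of the 37 members and replicate 1 lowest for 22, and among P95H PHZ libraries replicate 2 was lowest for 25. Without P95H PBS replicates 4 and 5, those with the highest marker means, 26 members fell after PHZ in P95H, with a median of -0.56. In that fit 1263 of all 10890 entries were called lower, against 1923 with all libraries.

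**Figure D3:**
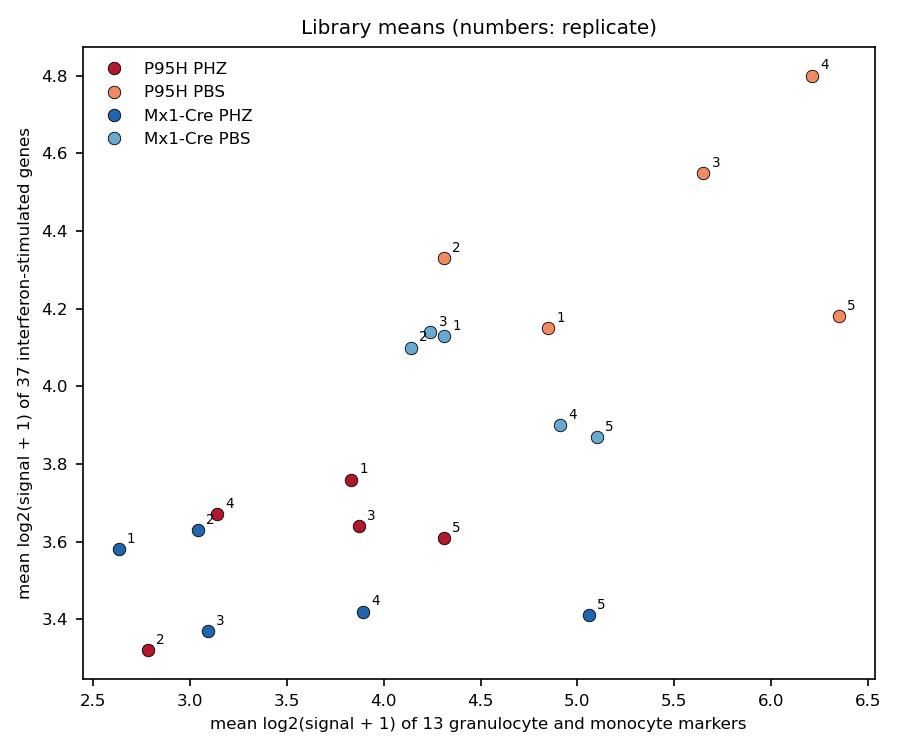
Mean log2(signal + 1) of the 37 members against that of the 13 granulocyte and monocyte markers, 1 point per library with its replicate number. PHZ libraries lie at 3.32 to 3.76 on the member axis and PBS libraries at 3.87 to 4.80, while the marker means meet at 4.31 in P95H (PHZ replicate 5 and PBS replicate 2) and overlap in Mx1-Cre through PHZ replicate 5, at 5.06.

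The second question was whether the mutation changed these genes. Under PBS, 3 of the 37 members were higher in P95H than in Mx1-Cre CFU-E, none was lower and 34 were not called, where 0.358% of all entries were called higher. The estimates lay above 0 for 33 of the 37 members and for 4331 of all 10890 entries. Their median was 0.29 over the members and -0.03 over all entries. An unadjusted p under 0.05 was found for 20 members and for 1539 of all 10890 entries. Rtp4 was higher in each of the 5 P95H PBS libraries listed above than in any Mx1-Cre PBS library (log2 fold change 1.33, SE 0.26, adjusted p = 0.0108). Oas1a was too (log2 fold change 1.14, SE 0.257, adjusted p = 0.0294), and so was Ifitm3, by a margin of 88.5 in the lowest P95H PBS library against 87.5 in the highest Mx1-Cre PBS library (log2 fold change 0.98, SE 0.19, adjusted p = 0.0109).

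Some alternatives ended these calls. Oas1a lost its call when any of Mx1-Cre PBS replicates 2, 4 and 5 or P95H PBS replicates 3, 4 and 5 was left out (1.07 to 1.19, adjusted p 0.0534 to 0.0702), without P95H PBS replicates 4 and 5 together (1.10, adjusted p = 0.132), with a pseudocount of 0.1 (1.21, adjusted p = 0.06) and with the marker covariate (1.16, adjusted p = 0.0744). Rtp4 lost it with that covariate (1.22, adjusted p = 0.0511), with a pseudocount of 0.1 (1.52, adjusted p = 0.0529) and when the PBS groups were fitted alone (1.33, adjusted p = 0.0948), and Ifitm3 lost it in that same fit (0.98, adjusted p = 0.142). The next largest estimates were Oasl2 (1.02, SE 0.31, adjusted p = 0.119), Isg15 (0.77, SE 0.286, adjusted p = 0.217) and Zbp1 (0.77, SE 0.308, adjusted p = 0.252), none of them called with all libraries in. Zbp1 passed the filter on low values through P95H PBS libraries at 1.18, 2.07, 1.28 and 8.92 and Mx1-Cre PBS replicate 1 at 1.14. Its selection and its higher P95H PBS level are therefore not independent. Without P95H PBS replicate 1, Oasl2 (1.25, adjusted p = 0.0417) and Oas3 (0.86, adjusted p = 0.0464) were called. Bst2, whose P95H PBS libraries all lay above the Mx1-Cre PBS libraries, missed the threshold (0.55, SE 0.142, adjusted p = 0.0627) and passed it under quantile normalization (0.57, adjusted p = 0.0485) or without P95H PBS replicate 2 or P95H PHZ replicate 4 or 5 (0.55 to 0.61, adjusted p 0.0237 to 0.0449). None of the 13 granulocyte and monocyte markers was called in this comparison, yet all 13 estimates lay above 0, at 0.55 to 1.31 with a median of 0.90, and summed lymphoid markers were higher in every P95H PBS library (4.59 to 12.5) than in any Mx1-Cre PBS library (2.79 to 4.11). The part of these cells in the members' estimates was not tested beyond the covariate.

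After PHZ, 1 member was higher in P95H than in Mx1-Cre CFU-E and none was lower, where 1.10% of all entries were called higher. It was Ifitm1, whose lowest P95H PHZ library stood at 1.3 and whose highest Mx1-Cre PHZ library at 0.928 (log2 fold change 0.73, SE 0.164, adjusted p = 0.0109). These values are near the filter, and a filter at 5 removes the gene. The median over the members was 0.06, against -0.05 over all entries. Ifitm3 was higher in all 5 P95H PHZ libraries, at 86.8 to 113, than in the Mx1-Cre PHZ libraries, at 63.7 to 73.1, without a call in the fit of all 4 groups (log2 fold change 0.52, SE 0.19, adjusted p = 0.115), and it was called when the PHZ groups were fitted alone (adjusted p = 0.00602). Rtp4 (0.43, SE 0.26, adjusted p = 0.351), Oas1a (0.49, SE 0.257, adjusted p = 0.281) and Isg15 (0.00, SE 0.286, adjusted p = 0.998) were not called after PHZ.

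The third question was whether PHZ acted differently in the 2 genotypes. The difference between the PHZ effects, tested as an interaction, was called for 0 of the 37 members and for 0% of all entries (limma). At an unadjusted p under 0.05 there were 5 members and 577 of all entries. The estimates were below 0 for 30 of the 37 members and for 6283 of all 10890 entries. Their median was -0.24 over the members and -0.03 over all entries. An estimate below 0 means a lower log2 fold change after PHZ in P95H than in Mx1-Cre, and not always a larger fall. Ifi35, for one, changed by 0.06 in P95H and 0.30 in Mx1-Cre. All 13 granulocyte and monocyte markers also had estimates below 0, at -1.22 to -0.53 with a median of -0.89, as had both lymphoid markers tested (median -0.63), and none was called. Of the 19 members that fell in both genotypes, 17 had the larger fall in P95H. The same share was not counted over the 1148 entries lower in both, so this count is no result about the members in particular. The largest differences were those of Rtp4 (-0.89, SE 0.368, adjusted p = 0.798), Zbp1 (-0.82, SE 0.435, adjusted p = 0.798), Oasl2 (-0.78, SE 0.439, adjusted p = 0.798) and Isg15 (-0.77, SE 0.405, adjusted p = 0.798). This difference and the comparison of the genotypes under PBS use the same PBS libraries, so their estimates are not independent. The selection of Zbp1 and its estimate are not independent either, since it passed the filter mostly through P95H PBS libraries.

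**Figure D4:**
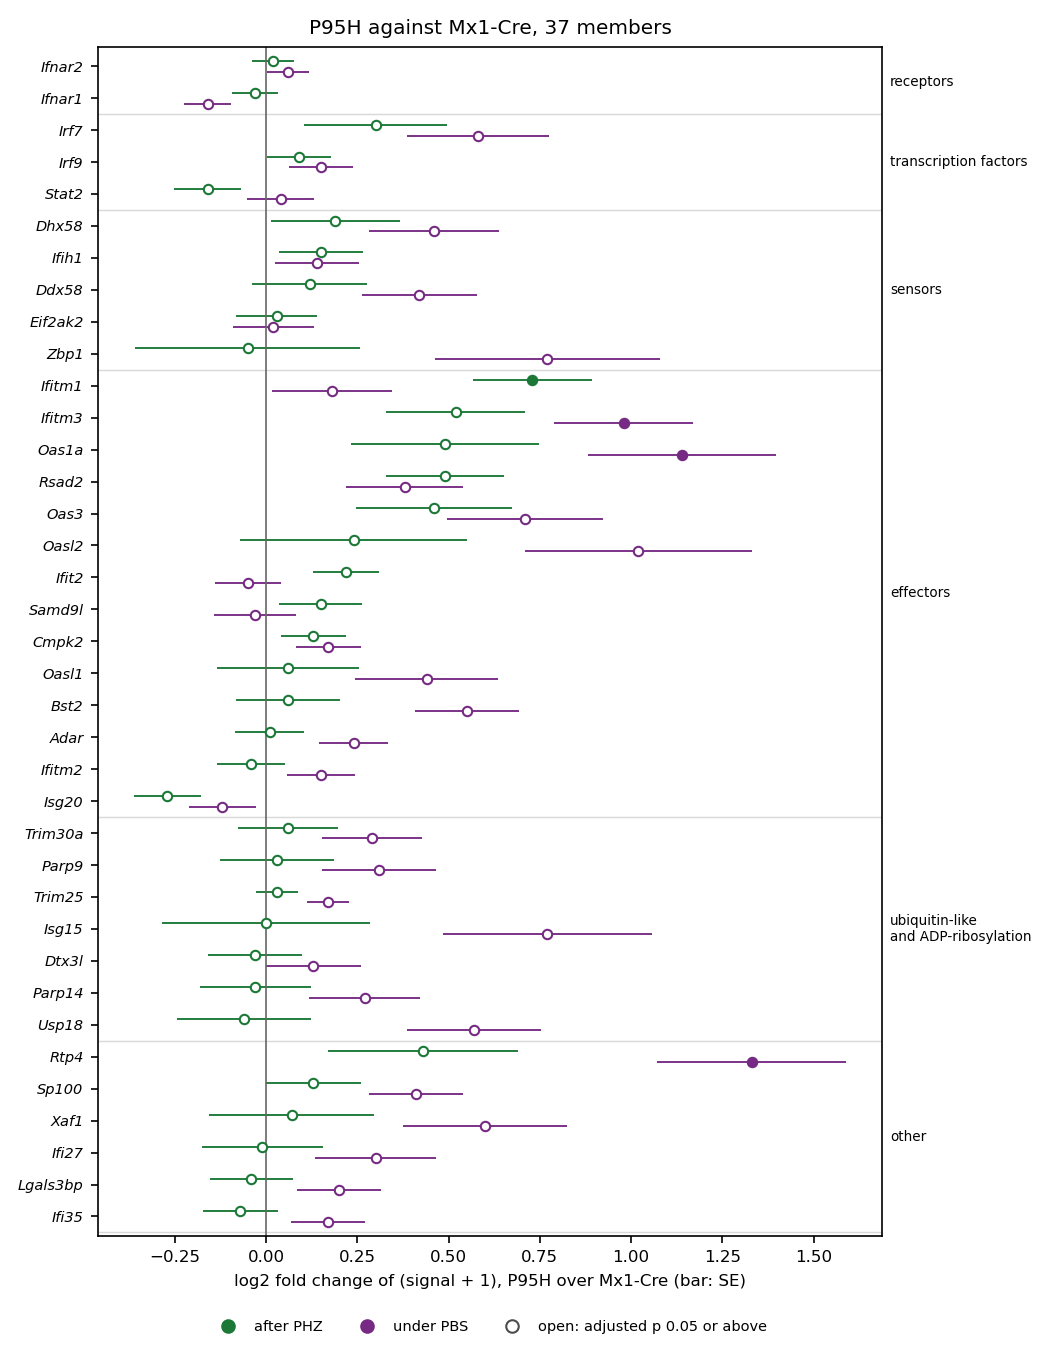
Log2 fold change of each of the 37 members, P95H over Mx1-Cre, after PHZ (green) and under PBS (purple), with its SE, grouped by role. Filled points passed the test: Ifitm1 after PHZ, and Rtp4, Oas1a and Ifitm3 under PBS. Most PBS points lie right of 0 (33 of 37, against 4331 of all 10890 entries).

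Other interferon genes, from lists that hold no member, were set beside the members. Among all entries, 17.7% were called lower and 12.6% higher after PHZ in P95H, and 14.9% lower and 17.0% higher in Mx1-Cre. Of 13 interferon signalling genes tested, 7 fell and 1 rose after PHZ in P95H, and 7 fell and 2 rose in Mx1-Cre. Irf1, a factor induced by interferon-gamma, fell by 1.46 in P95H (adjusted p = 0.000363) and by 1.26 in Mx1-Cre (adjusted p = 0.00137) on the log2 scale. The receptor kinase Jak1 rose in both (0.29 in P95H, adjusted p = 0.00103, and 0.19 in Mx1-Cre, adjusted p = 0.0202), and its partner Tyk2 was not called (0.03 in P95H and 0.09 in Mx1-Cre). Ifngr2, a chain of the interferon-gamma receptor, fell in both (-0.67 in P95H and -0.41 in Mx1-Cre).

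Of 10 genes of nucleic acid sensing outside the member list, 2 fell and 1 rose in P95H, and 2 fell and 4 rose in Mx1-Cre. Their medians were 0.08 in P95H and 0.18 in Mx1-Cre. Both P95H counts and the falls in Mx1-Cre were near the shares of all entries, 17.7% lower and 12.6% higher in P95H and 14.9% lower in Mx1-Cre. Traf3, an adaptor of the sensors' signalling, rose in both (in P95H 0.68, SE 0.0914, adjusted p = 1.05e-05, and in Mx1-Cre 0.69, SE 0.0914, adjusted p = 1.01e-05). Of 10 interferon-gamma-responsive GTPases, which attack the vacuoles of parasites and bacteria, 7 fell and 1 rose in P95H, and 6 fell and 1 rose in Mx1-Cre. The near-identical pair Tgtp1 and Tgtp2, whose reads cannot be assigned with confidence, fell by 1.92 and 1.96 in P95H and by 1.4 and 1.5 in Mx1-Cre. Igtp fell by 1.28 in P95H (adjusted p = 0.00182) and by 0.91 in Mx1-Cre (adjusted p = 0.0174), and Gbp2b rose (0.75 in P95H and 0.85 in Mx1-Cre).

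Of 32 further interferon-responsive genes tested, 25 fell and 1 rose in P95H, and 21 fell and 2 rose in Mx1-Cre. B2m, the light chain of MHC class I, averaged 932 ± 89.4 in P95H PHZ and 2291 ± 587 in P95H PBS libraries (log2 fold change -1.27, SE 0.145, adjusted p = 2.6e-06). In Mx1-Cre it averaged 911 ± 84.3 after PHZ and 1849 ± 377 under PBS (log2 fold change -1.0, SE 0.145, adjusted p = 4.14e-05). Parp12 (-1.15 in P95H and -0.79 in Mx1-Cre) and Trim34a (-1.11 in P95H and -1.06 in Mx1-Cre) fell in both. Slfn9, of the Schlafen family, rose in both (1.01 in P95H and 0.62 in Mx1-Cre). After PHZ, Slfn9 and Herc6 were higher in P95H than in Mx1-Cre, with log2 fold changes of 0.65 (SE 0.182, adjusted p = 0.04) and 0.46 (SE 0.0839, adjusted p = 0.00327), and under PBS Ifi203 was (0.48, SE 0.102, adjusted p = 0.0164).

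**Figure D5:**
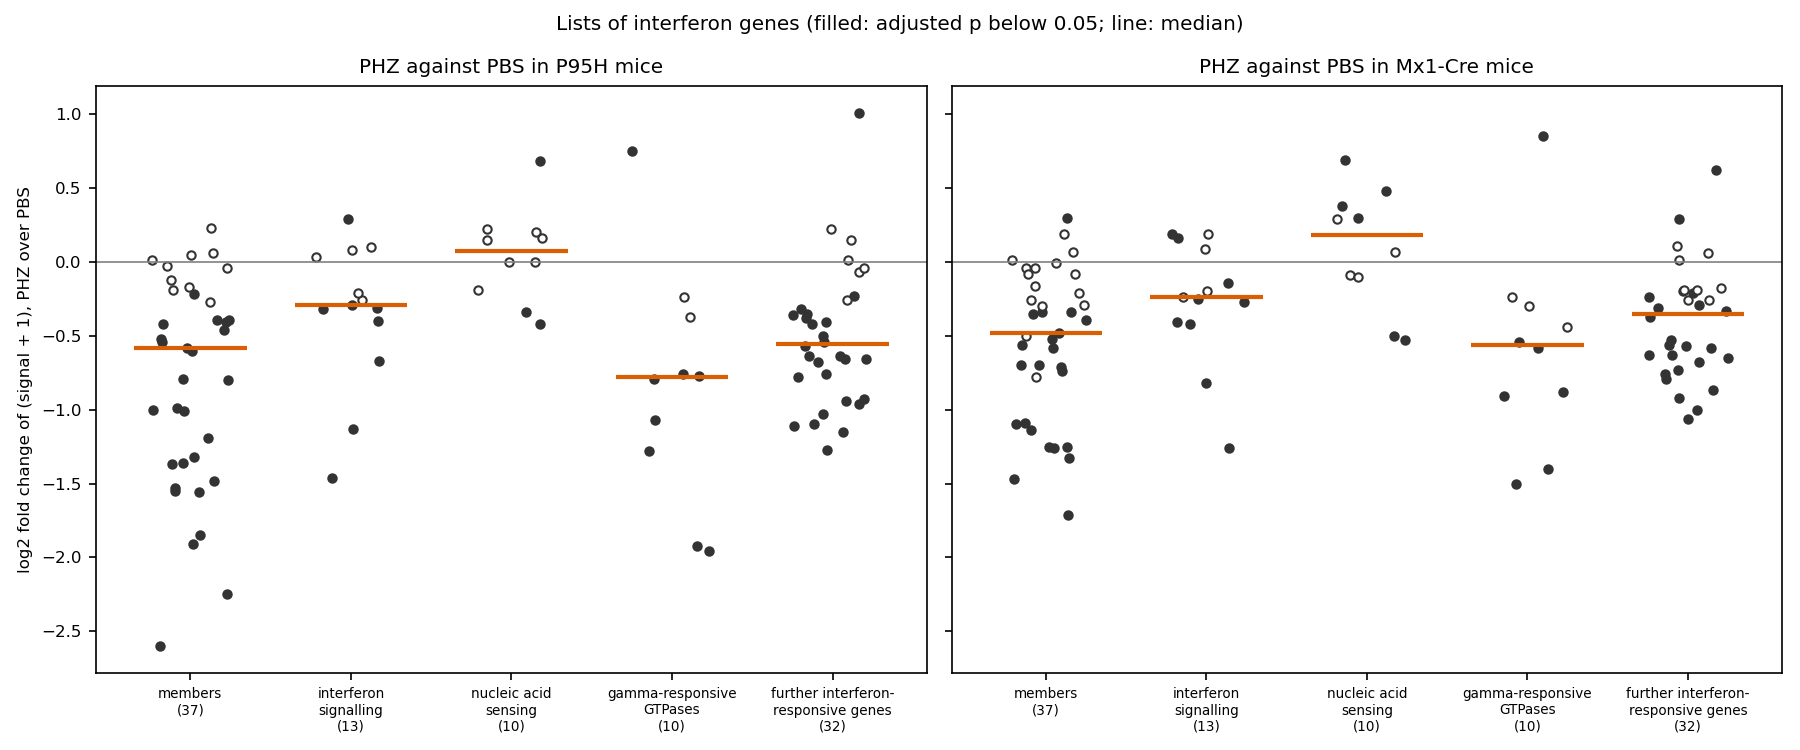
Log2 fold change after PHZ of each gene tested in the member list (37) and 4 other lists of interferon genes, in P95H mice (left) and Mx1-Cre mice (right), with the median of each list as a line and called genes filled. Medians lie below 0 for the members (-0.58 in P95H, -0.48 in Mx1-Cre), signalling genes, GTPases and further responsive genes, and above 0 for nucleic acid sensing (0.08 in P95H, 0.18 in Mx1-Cre).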

How the data were processed

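Per the labels, RNA of sorted bone marrow CFU-E from 20 mice was sequenced as 150 bp paired-end reads with a stated minimum depth. The submitters' processing notes list the tools TopHat2 2.0.8b, TopHat, RSEM 1.2.4 and Bowtie and the builds GRCm38, mm10, GRCh37 and hg19, without saying what each was used for. The deposited file is a table of normalised signal for 37748 entries, made by the authors. Within a library, values divided by a single factor (0.94 to 1.1) were whole multiples of 0.01, within 0.01 of a step (100% of values), the form of TPM rounded and then rescaled. The sources used here do not give the origin of the factors or the strand setting. The signal holds no counts, so the depth is unknown and no counting interval is given.

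Values were analysed as log2(value + 1), so fold changes understate the change of low genes. Entries that reached 1 in 5 or more libraries were kept (10890). limma 3.58.1 in R 4.3.3, with trended and robust moderation, fitted 4 group means over all 20 libraries and 5 contrasts, two-sided, with Benjamini-Hochberg adjustment over all entries kept and a threshold of 0.05. The script was checked on simulated data. Symbols and 1-based positions came from GENCODE vM21 (GRCm38), which named 35986 entries and left 1762 without a symbol. Promoter windows came from RefSeq. Figures were drawn with Python 3.11.15 and matplotlib 3.10.9.

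Values in every library are given for 18 members: both receptors, every member called between genotypes, and within each role up to 3 members with the largest PHZ effects among those called that had a group mean of at least 5. Other lists name up to 3 called genes with the largest effects, and Jak1, Tyk2 and Irf1; another gene of this rule is not reported here. Members of other rank are named with their changes only, and the mentions of single libraries and promoter stretches were chosen after their values were seen. The members, lists, tests and alternatives were chosen with earlier results of these data known, so agreement with those results is no independent support. Alternatives were TMM factors (trimmed mean of M values), quantile normalization, the authors' factor divided out, pseudocounts of 0.1 and 5, a filter at 5 and none, the compared groups alone, no trend or robust step, the replicate number as a block, the granulocyte and monocyte marker mean as a covariate, and leaving out libraries.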

Additional observations from a re-analysis of the deposited data

Results flagged for a closer look

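Rsad2 stood at 1.54 in P95H PHZ replicate 2, against 2.71 to 3.31 in the other 4 P95H PHZ libraries. On the log2(signal + 1) scale the gap to the nearest library was 0.718 of the group's range, above the critical value of 0.71 for 5 samples. It was the 1 such library among 148 sets of 5 libraries checked, where chance gives about 1 in 20.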

How the results depend on the processing

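Counts of members called after PHZ stayed within 1.5 times those reported under every alternative run: 18 to 31 in P95H and 17 to 26 in Mx1-Cre, and 26 to 28 in P95H and 19 to 24 in Mx1-Cre when single libraries were left out. The fit without a filter tested all 43 members, with the 6 that had not passed among them. The interaction called 0 members throughout. Under PBS, where 3 members were higher in P95H, 1 was called with a pseudocount of 0.1 and 1 when the compared groups were fitted alone. With the marker covariate 1 was called, and without a filter 5 of all 43. Leaving out single libraries gave 2 to 5, the 5 without P95H PBS replicate 1. After PHZ, where 1 was higher, 0 were called with a filter at 5 (Ifitm1 is then not tested) and 2 when the compared groups were fitted alone, and single omissions gave 1 to 2 calls. The second call was Rsad2, higher in P95H, without P95H PHZ replicate 2 or Mx1-Cre PHZ replicate 2 (0.62 and 0.60, adjusted p = 0.0248 and 0.0365), and Isg20, lower in P95H, without P95H PHZ replicate 1 or 5 (-0.33 and -0.34, adjusted p = 0.0384 and 0.0297). The cause of these shifts was not tested. With the replicate number as a block, 27 members were called after PHZ in P95H and 22 in Mx1-Cre, and between genotypes 1 was called after PHZ and 3 under PBS. The replicate numbers share no animal. Correlations of same-numbered libraries' deviations ran from -0.31 to 0.27. Between treatments, 4 of 10 libraries in P95H and 5 of 10 in Mx1-Cre matched their own number best. Between genotypes it was 1 of 10 after PHZ and 1 of 10 under PBS. Whether the numbers mark a shared structure was not tested beyond the block. For single members, each comparison was labelled by whether its call was kept, lost or gained. Under the settings that keep every library of the groups compared, 1930 results were the same, 27 calls were lost and 11 gained. With libraries left out, 3842 results were the same, 23 calls were lost and 20 gained. Results not called in either fit count as the same, those of the interaction included, so these totals are not numbers of calls kept. No direction of a called value turned round. With depth unknown, values near 1, such as Ifitm1, Oasl2 and Rtp4 after PHZ, may be imprecise.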

Other observations

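Relatives of members that resemble them in sequence were also read. Oas1b, a relative of Oas1a, averaged 2.02 in P95H PHZ and 4.75 in P95H PBS libraries and fell after PHZ (log2 fold change -0.94, adjusted p = 4.81e-06), and in Mx1-Cre it averaged 2.15 after PHZ and 3.80 under PBS (log2 fold change -0.61, adjusted p = 0.000607). Oas1c fell in Mx1-Cre (log2 fold change -0.44, adjusted p = 0.00754) and was not called in P95H (log2 fold change -0.22, adjusted p = 0.155). Ifitm6 averaged 2.34 in P95H PHZ and 7.95 in P95H PBS libraries, a difference that was not called (log2 fold change -1.26, adjusted p = 0.0608). These adjusted p-values are from limma, as above.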
